A study of Mus musculus with 56 samples.

Results

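Gene expression was compared 3 hours after injection between 7 mice that received oleic acid (OA) and 2 mice that received physiological serum. A clone was counted as separated where all 7 OA mice lay beyond both serum mice, and only among clones brighter than the empty spots of the membrane. Of 7625 named clones, 1953 were above that limit. OA was higher in 503 of them (25.8%) and lower in 245 (12.5%). Of these, 430 (22%) and 183 (9.37%) also passed limma, a linear model fitted to all named clones, at a Benjamini-Hochberg adjusted p under 0.05. The limit was taken on the mean over 9 mice, 7 of them OA, so a clone could pass it through OA alone. With both groups weighted equally the separated clones were 361 higher and 261 lower.

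The study followed lung expression after OA from 1 hour to 24 hours on 60 MUSV29K microarrays, nylon membranes spotted with mouse cDNA clones and hybridized with 1 labelled sample each. The 3 hours mice took 15 of these, 13 for OA (2 microarrays for each of 6 mice) and 1 for each serum mouse. All mice were female C57Bl/6J of 7 weeks, anaesthetized with Xylazine and Ketamine and injected in the tail vein. OA mice received 20 µl of oleic acid (1.2 µl per g body weight) and the controls physiological serum. The OA mice belonged to 3 lots of 2, 2 and 3 mice. The serum mice carry no lot label, so that lot and treatment cannot be told apart. For 1 of the 2 microarrays of the OA mouse P7L3, the title gives 3 hours and the source name another time, and it was kept at 3 hours. Values are log2 intensities quantile-normalized over the 60 microarrays, with 1 mean for each mouse, and every difference is OA minus serum on that scale. The limma p-values rest on a spread pooled over 35 mice of 11 groups, most of them OA mice, because 2 serum mice alone give too little. They take the 2 serum mice, with 1 microarray each, to vary as the other mice do, which was not tested.

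Oleic acid is a fatty acid that, given in the blood, reaches the lung capillaries first and injures the endothelium and the alveolar epithelium. Fluid then leaks into the air spaces and leukocytes gather in the alveolar wall. Chemokines call leukocytes to the tissue, adhesion molecules of the endothelium hold them there, and interferon-regulated genes and MHC class I molecules take part in the defense that follows.

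One serum microarray was very dim. Before normalization the median log2 intensity was 5.73 in serum mouse 1 and 8.39 in serum mouse 2, and it ran from 7.31 to 8.54 in the OA mice (8.16 ± 0.47, SD, n = 7). The difference did not pass an exact two-sided permutation test over mice (p = 0.139, adjusted p = 0.167 over 2 measures), in which the smallest possible p was 0.0278. Clones above the empty-spot limit made up 13.6% and 27.5% in the serum mice and 20.4 to 37.8% in the OA mice (exact permutation p = 0.167). Across clones, microarrays correlated at 0.93 to 0.95 within an OA mouse, 0.90 to 0.96 between OA mice, 0.93 between both serum mice and 0.79 to 0.89 between serum and OA. The serum microarrays thus stood apart from the OA microarrays over the whole membrane. In bulk lung RNA, fewer cells of a type and less RNA per cell cannot be told apart.

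The lung was checked by its markers. Of 7 clones of lung epithelium genes 6 were above the limit, and of 7 clones of lung endothelium genes 5 were. None of 6 thymocyte clones was above it. Of 11 liver clones 4 were above the limit, among them Cyp2e1, an enzyme of drug metabolism that the lung also makes, which was at least 3.66-fold higher in OA (limma adjusted p = 6.13e-06). The single heart and muscle clone above the limit, the skeletal muscle actin Acta1, differed by 1.72 (limma adjusted p = 8.09e-06). Acta1 was 11.29 to 12.41 in the OA mice and 10.54 and 9.61 in the serum mice, and the part of other tissue in these values was not tested.

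Among the clones above the limit the widest gaps were all on the higher side, and the first belonged to Cklf, a chemokine-like factor that attracts leukocytes. Its clone O:02-F:08 was 11.58, 12.48 and 12.93 in the lowest, median and highest OA mouse, against 6.07 and 6.53 in the serum mice. A second Cklf clone, H:03-F:06, was 12.3, 13.18 and 13.47 in the OA mice, against 8.26 and 8.55. In both clones the groups lay far apart, and neither serum mouse was above the empty-spot limit. Such a clone has only a bound in serum, so a fold is given as at least the OA mean over the serum limit (or over the serum signal on a microarray where that was higher). On that scale Cklf was at least 6.67-fold higher by the first clone (limma adjusted p = 6.46e-12) and at least 10.6-fold by the second (3.88e-10).

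Other clones among the 12 with the widest gaps encode proteins of unrelated roles. Prei3, now Mob4, a partner of the striatin phosphatase complex, was 12.44, 13 and 13.8 in OA against 8.36 and 8.64 in serum, at least 10.5-fold higher (limma adjusted p = 4.05e-09). Cherp, a protein of calcium handling in the endoplasmic reticulum, was 12.3, 13.01 and 13.47 against 8.53 and 8.6, at least 10.1-fold higher (limma adjusted p = 9.99e-09). In both genes the lowest OA mouse was well above both serum mice, and the serum signal was not above the empty-spot limit. The mitotic gene Dlg7, now Dlgap5, was at least 6.86-fold higher, the nucleotidase Bpnt1 at least 5.66-fold, the clone Q3U0Y7MOUSE at least 7.19-fold, Ttc9c at least 4.42-fold and Gtpbp8 at least 3.05-fold. All 12 also lay above the 6 serum mice of the other time points.

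**Figure D1:**
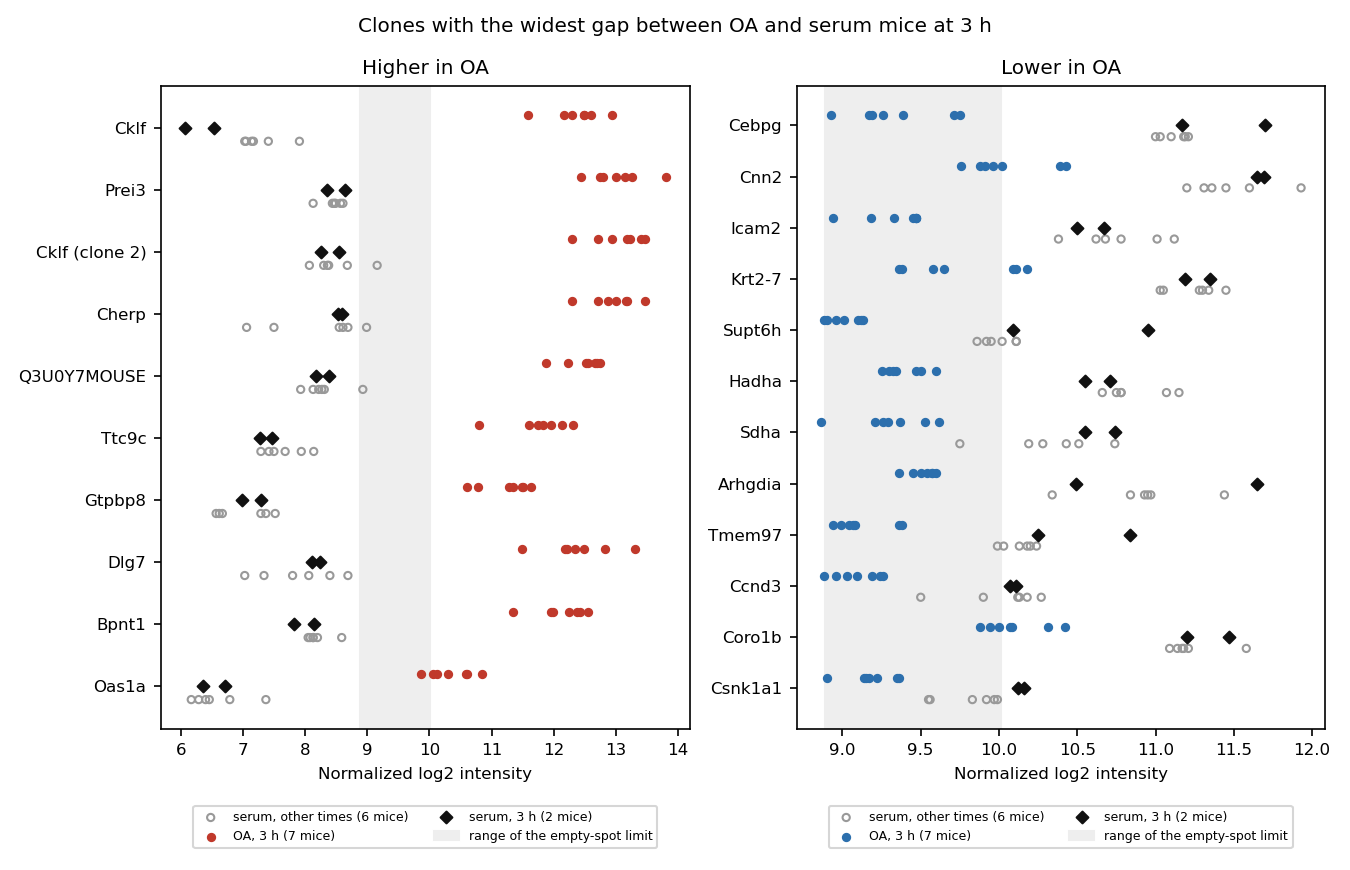
Normalized log2 intensity (x axis) of clones with the widest gaps, 10 higher (left) and 12 lower (right), 1 point for each mouse, with the 7 OA mice in color, the 2 serum mice at 3 h as diamonds, the 6 serum mice of other times as open circles and the range of the empty-spot limit in grey. On the left, both serum mice lie below the grey band in every clone shown (Cklf 6.07 and 6.53 against 11.58 to 12.93 in OA). On the right, most OA values lie inside the band and the serum values above it (Cebpg 11.7 and 11.17 against 8.93 to 9.75 in OA).

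On the lower side the gaps were narrower and most OA values were near the empty-spot limit. A clone with OA far below that limit could hardly pass it, so wider falls may have been left out. Cebpg, a transcription factor of the C/EBP family, was 8.93, 9.26 and 9.75 in OA against 11.7 and 11.17 in serum, a difference of −2.09 ± 0.34 (SE) or 4.26-fold (limma adjusted p = 2.18e-05). Arhgdia, an inhibitor of small GTPases, was 9.36, 9.54 and 9.6 against 11.65 and 10.49, a difference of −1.56 ± 0.22 (limma adjusted p = 3.66e-06). Cnn2, the actin-binding calponin, was 9.76, 9.96 and 10.43 against 11.69 and 11.65, a difference of −1.62 ± 0.29 (limma adjusted p = 8.48e-05). No OA mouse reached a serum mouse in any of the 3 genes, and Arhgdia varied least among OA mice and most between the serum mice. Coro1b, an actin regulator, fell by 1.23 and Krt2-7 (Krt7), a keratin of simple epithelia, by 1.5. Supt6h, of transcription elongation, fell by 1.51, Tmem97 by 1.42 and the kinase Csnk1a1 by 0.95.

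The 430 higher clones had a median difference of 0.94, with a median gap of 0.47 between the nearest OA and serum mouse. In 192 of them neither serum mouse was above the limit, and with these at their bound the median was 0.72. Of the lower clones 0 were without an OA microarray above the limit. These counts cannot be compared between the directions, because the limit was taken on a mean made up mostly of OA mice. A clone with every OA microarray below the limit could hardly pass it. The 183 lower clones had a median of −0.71, or 1.63-fold, and a median gap of 0.26, and 33 of them passed 2-fold. All 1953 clones above the limit had a median of 0.15 and limma called 516 higher (26.4%) and 221 lower (11.3%). Over all 7625 clones it called 1809 higher (23.7%) and 1245 lower (16.3%). When each microarray was centred on its median instead, these counts became 1300 and 1686, and the separated clones became 298 higher and 448 lower, so that the balance between the directions turned with the scaling. Leaving out 1 serum mouse moved the counts too. Separation from 1 serum mouse is easier to meet than from 2, so a rise in separated clones follows from the rule. Without serum mouse 1 the separated clones were 650 higher and 584 lower and the limma calls 1088 and 695, and without serum mouse 2 the separated clones were 985 and 331.

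Control spots went the same way as the lower clones. CG03 spots, negative controls that hold a cDNA of the plant Arabidopsis thaliana, were separated lower in 100 of 192 (52.1%) and higher in 0, with a median difference of −1.15. Their median signal was 10.69 to 11.79 in the OA mice and 12.78 and 11.87 in the serum mice. Of the 512 empty spots 153 (29.9%) were separated lower and 32 (6.25%) higher. Of the 22 empty spots above the limit 2 were lower and 1 higher. Counted the same way over all brightness levels, 23.3% of the named clones were separated higher and 16.6% lower. How much of the lower side in the clones goes with the shift of the control spots was not tested.

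**Figure D2:**
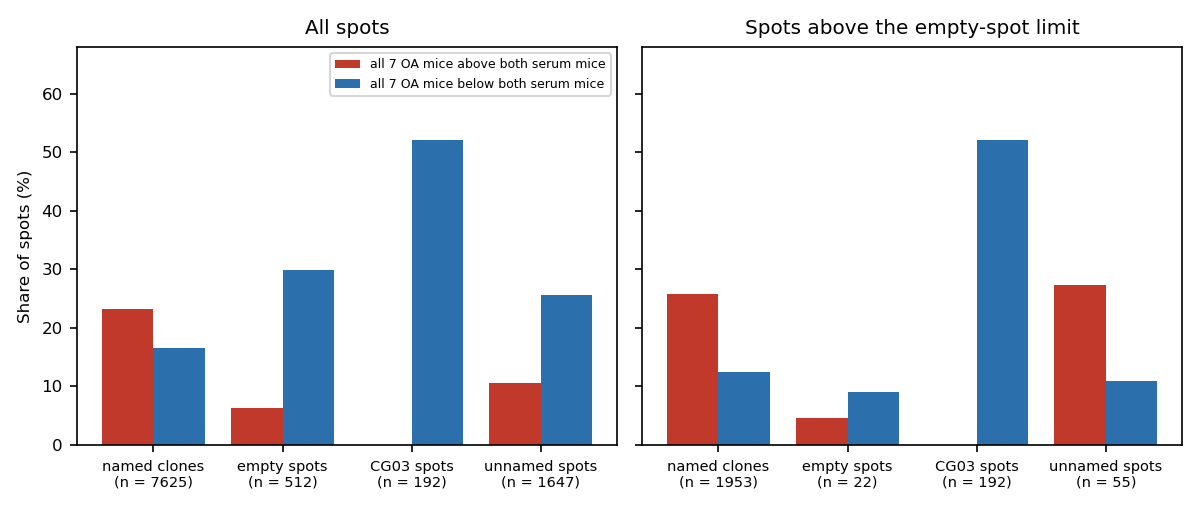
Share of spots (y axis, percent) in which all 7 OA mice lay above (red) or below (blue) both serum mice, for named clones, empty spots, CG03 spots and spots without a gene name, over all spots (left) and over spots above the empty-spot limit (right). CG03 spots have no red bar and a blue bar of 52.1%, and named clones above the limit have 25.8% and 12.5%.

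Both directions varied with the position on the membrane. The spots carry a well position, with 12 columns in each of 64 blocks. In column 12, 40 of 101 clones above the limit were separated and called lower (39.6%) and 5 higher (4.95%), with a median difference of −0.47. In columns 1 to 10, 4.22 to 9.88% were lower and the median difference was 0.05 to 0.28. In column 11, 16% were lower. By well row, the share separated and called higher ran from 5.38% in row B to 47.2% in row H, and the share lower from 4.05% in row I to 13.9% in row D. CG03 spots differed by well, with 6 of 64 lower in well A:01, 39 in A:12 and 55 in M:12. Of the 12 clones with the widest lower gaps, 6 are in column 12 (Cebpg, Krt2-7, Supt6h, Sdha, Tmem97 and Csnk1a1), and none of the 12 widest higher clones is. Outside column 12, 425 of 1852 clones were separated and called higher, and 143 were lower, out of 183 on the whole membrane.

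**Figure D3:**
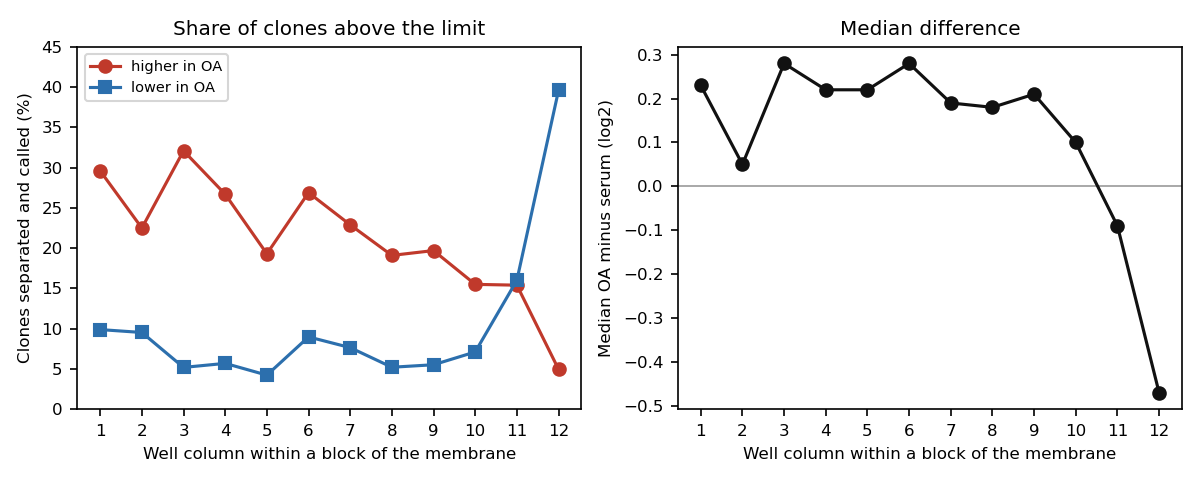
Left, share of clones above the limit that were separated and called higher (red) or lower (blue) in OA (y axis, percent) by well column of the membrane (x axis, 1 to 12). Right, the median OA minus serum difference (log2) in each column, which is 0.05 to 0.28 in columns 1 to 10, −0.09 in column 11 and −0.47 in column 12.

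Interferon-regulated and MHC class I genes had 14 clones above the limit, of which limma called 4 higher (28.6%, beside 26.4% of all clones above the limit) and 1 lower, with a median of 0.27. Under median centring 3 were called higher and 6 lower with a median of −0.30, and under quantile normalization over named clones 3 and 4 with −0.01. Ifi205, an interferon-inducible gene, was 10.14, 10.48 and 12.05 in OA against 7.58 and 7.62 in serum, at least 2.29-fold higher (limma adjusted p = 6.77e-06). Oas1a, which makes oligoadenylates that activate an antiviral nuclease, was 9.87, 10.3 and 10.85 against 6.36 and 6.71, at least 1.64-fold higher (limma adjusted p = 5.13e-10). B2m, the light chain of MHC class I, was 13.64, 13.84 and 13.95 against 11.81 and 12.58 in its clone N:02-A:03, a difference of 1.63 ± 0.24 (limma adjusted p = 6.96e-06). In that clone the 6 serum mice of the other times ran from 12.11 to 13.63, the highest just below the lowest OA mouse. Ifi205, Oas1a and B2m were higher in every OA mouse than in either serum mouse at 3 hours. The other B2m clone, B:02-H:05, was 12.82, 13.1 and 13.56 against 12.08 and 12.45, a difference of 0.90 that turned to −0.06 under median centring, and it did not lie above all of the 6 other serum mice. Psmb10, a subunit of the immunoproteasome, was 9.42, 9.57 and 9.83 against 10.24 and 10.05 and fell by 0.54 (limma adjusted p = 0.00257).

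The promoters of the 3 genes called higher at 3 hours are shown because interferon acts on such genes through a known element. Its core, GAAA followed after any 2 bases by GAAA, was searched on both strands of the 250 bases before each start. The sequences are of RefSeq on GRCm38.p6, read 5′ to 3′ on the strand of the gene, and capitals mark the core. They lie at chr1:174031756-174032005 (minus strand) for Ifi205, chr2:122147437-122147686 (plus strand) for B2m and chr5:120907526-120907775 (minus strand) for Oas1a.
Ifi205: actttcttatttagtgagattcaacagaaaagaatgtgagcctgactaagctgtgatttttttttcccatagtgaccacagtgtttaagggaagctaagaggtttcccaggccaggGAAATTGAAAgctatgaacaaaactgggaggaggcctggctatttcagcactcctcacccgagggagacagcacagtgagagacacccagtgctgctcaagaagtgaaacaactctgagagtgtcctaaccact
B2m: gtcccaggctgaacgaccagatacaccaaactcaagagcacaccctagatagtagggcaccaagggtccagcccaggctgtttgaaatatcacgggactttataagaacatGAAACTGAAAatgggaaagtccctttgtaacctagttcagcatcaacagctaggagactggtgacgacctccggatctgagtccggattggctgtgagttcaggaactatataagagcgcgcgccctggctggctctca
Oas1a: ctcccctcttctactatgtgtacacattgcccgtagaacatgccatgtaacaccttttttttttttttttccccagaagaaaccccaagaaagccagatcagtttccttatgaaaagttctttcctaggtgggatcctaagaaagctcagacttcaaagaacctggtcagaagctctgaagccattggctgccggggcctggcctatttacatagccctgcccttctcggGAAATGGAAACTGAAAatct
Ifi205 and B2m hold 1 match each, and Oas1a holds 2 that overlap. The promoter of Psmb10 holds none in this window. Of 32851 mouse promoters of the same length 978 hold the core (2.98%), and a match is a description of the letters only.

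Chemokines, cytokines and their receptors had 97 clones, but only 16 were above the limit, and limma called 6 of these higher (37.5%, beside 26.4% of all clones above the limit) and 1 lower, with a median of 0.20 that turned to −0.03 under median centring. Beside the Cklf clones, Il16, which attracts CD4 cells, was 9.6, 9.92 and 10.97 in OA against 8.41 and 8.64 in serum, at least 1.3-fold higher (limma adjusted p = 4.96e-05). The interleukin 1 receptor Il1r1 was 9.27, 9.54 and 9.84 against 8.78 and 8.35 (limma adjusted p = 0.00887), with no fold because serum was not above the limit and OA was near it. All OA mice were above both serum mice in these genes, near the limit of the membrane. The interleukin 4 receptor chain Il4ra was 9.16, 9.41 and 9.69 against 10.04 and 9.91 and fell by 0.55 (limma adjusted p = 0.00662). The clones of Il10, Il4, Ccl2, Cxcl1 and Il1b were not above the empty-spot limit, and their levels were not read.

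Genes of immediate early transcription factors and MAPK phosphatases had 14 clones above the limit, 3 of them called higher (21.4%, beside 26.4% of all clones above the limit) and none lower, with a median of 0.24. Without the OA mouse P9L3 or P2L1 1 was called higher, with medians of 0.13 and 0.04. Fos, a subunit of the AP-1 factor, was 10.23, 10.35 and 10.95 in OA against 8.93 and 8.89 in serum, at least 1.76-fold higher (limma adjusted p = 0.0435). Dusp6, which inactivates ERK kinases, was 9.58, 9.75 and 10.33 against 8.74 and 9.16, at least 1.16-fold higher (limma adjusted p = 0.000124). Dusp1, a related phosphatase, was 9.03, 9.42 and 10.65 against 8.97 and 8.13 (limma adjusted p = 0.0208), again with no fold. Fos and Dusp6 were clear of the serum mice, and the lowest OA mouse in Dusp1 was close to serum mouse 1.

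The metallothionein Mt2, a metal-binding protein induced by metals and glucocorticoids, was higher in both of its clones. In H:03-A:07 it was 10.92, 11.61 and 11.9 in OA against 10.8 and 9.43 in serum, a difference of 1.37 (limma adjusted p = 0.00544), and in I:01-J:03 it was 10.36, 10.62 and 11.08 against 10.3 and 8.77, a difference of 1.15 (limma adjusted p = 0.00402). In both clones serum mouse 1 was just below the lowest OA mouse and serum mouse 2 far below. Over the glucocorticoid and metallothionein list, 4 of 15 clones above the limit were called higher (26.7%, beside 26.4% of all clones above the limit) and none lower, with a median of 0.60. Without serum mouse 2 the median was 0.35 and no clone of the list was called.

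Endothelial cell genes had 18 clones above the limit, 1 called higher and 5 lower, beside 26.4% higher and 11.3% lower over all clones above the limit, with a median of −0.06. Under median centring none was called higher and 8 lower, with a median of −0.40. Icam2, an adhesion molecule of resting endothelium, was 8.94, 9.45 and 9.47 in OA against 10.67 and 10.5 in serum, a difference of −1.26 ± 0.20 (limma adjusted p = 1.74e-05). Plvap, of the diaphragms of endothelial vesicles, was 8.41, 8.96 and 9.88 against 10.78 and 10.58 and fell by 1.68 (limma adjusted p = 0.000983). Eng, a co-receptor of TGF-beta, was 8.46, 9.06 and 9.6 against 10.17 and 10.06 and fell by 0.99 (limma adjusted p = 0.0112). Every OA mouse was below both serum mice in each, with OA values near the limit. Ace, the angiotensin-converting enzyme of the capillaries, was 8.82, 9.2 and 9.35 against 10 and 9.78 and fell by 0.74 (limma adjusted p = 0.00218). Timp3, an inhibitor of metalloproteinases, was 10.98, 11.58 and 11.83 against 10.44 and 10.89 and was the member that rose, by 0.87 (limma adjusted p = 0.00443). None of these clones is in well column 12, but Plvap is in column 11. There 16% of clones above the limit were separated and called lower, beside 4.22 to 9.88% in columns 1 to 10. Plvap also changed sign with the fitted signal at calculated diameter and in the authors' table. Without serum mouse 2 the list median was 0.23, with 2 clones called higher and 3 lower.

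Extracellular matrix, integrin and protease genes had 27 clones above the limit, of which 4 were called higher (14.8%) and 9 lower (33.3%), beside 26.4% and 11.3% of all clones above the limit, with a median of −0.08. Under median centring 1 was called higher and 13 lower, with a median of −0.59. Integrin Itga3 was lower in both of its clones above the limit, by 1.12 and 0.97 (limma adjusted p = 3.96e-05 and 9.1e-05). It was 9.45, 9.8 and 10.1 in OA against 11.03 and 10.73 in serum in H:04-G:06, and 10.23, 10.47 and 10.77 against 11.62 and 11.23 in E:03-G:11. The groups did not overlap in either clone. The microfibril protein Mfap2 fell by 0.65 and the proteoglycan Bgn, in column 12, by 0.75. In contrast, Sparcl1, a matrix-associated glycoprotein, was 10.25, 10.73 and 10.95 against 7.76 and 8.38, at least 2.03-fold higher (limma adjusted p = 5.58e-08). Without serum mouse 2 the list had 5 clones called in each direction and a median of 0.24.

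Fatty acid oxidation, lipolysis and PPAR target genes had 17 clones above the limit and moved in both directions, 4 higher (23.5%) and 3 lower (17.6%), beside 26.4% and 11.3% of all clones above the limit. The median was 0.30 and turned to −0.06 under median centring, with 3 higher and 4 lower. Acsl4, which activates long-chain fatty acids, was 12.04, 12.61 and 12.83 in OA against 10.39 and 11.25 in serum, a difference of 1.71 ± 0.26 (limma adjusted p = 9.77e-06). The mitochondrial dehydrogenase Acadl was 9.33, 9.91 and 10.13 against 8.78 and 8.13, at least 1.12-fold higher (limma adjusted p = 5.46e-05). Acaa2, the mitochondrial thiolase, rose by 0.87, and Dci (Eci1), an isomerase for unsaturated chains, was called higher with serum not above the limit and no fold. On the other side, Hadha, of the trifunctional protein of beta-oxidation, was 9.25, 9.34 and 9.6 against 10.71 and 10.55, a difference of −1.23 ± 0.13 (limma adjusted p = 4.21e-08). Enzymes of the same pathway thus lay on both sides of the serum mice. For fatty acid synthesis, Fasn fell by 1.18 in M:03-J:03 and by 1.33 in G:04-E:12, a clone in column 12 that was not above the limit. Soat2, which esterifies cholesterol, was 9.42, 10.12 and 10.57 against 7.16 and 6.63, at least 1.34-fold higher (limma adjusted p = 8.04e-10).

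Antioxidant and detoxification genes had 30 clones above the limit, 12 called higher (40%) and 2 lower (6.67%), beside 26.4% and 11.3% of all clones above the limit. The median was 0.38 and turned to −0.20 under median centring, with 5 higher and 8 lower. Slc7a11, the cystine carrier of glutathione synthesis, was 9.09, 10.19 and 11.4 in OA against 8.29 and 8.91 in serum, at least 1.54-fold higher (limma adjusted p = 0.0184). Thioredoxin Txn1 was 11.21, 11.6 and 12.14 against 11.03 and 11.08 (difference 0.56, limma adjusted p = 0.0261), and Gpx3, the secreted glutathione peroxidase, which lies in column 12, was 10.87, 11.23 and 11.86 against 11.89 and 12.95 and fell by 1.05. The OA mice spread widely in Slc7a11, and a serum mouse at 24 hours was at 9.92, above the lowest OA mouse. In Txn1 and Gpx3 the groups came close. Both clones of Aldh1a1, the retinaldehyde dehydrogenase of airway epithelium, were higher, by 0.94 and 0.86.

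Cytosolic ribosomal proteins, the protein part of the ribosome, gave the largest list, with 92 clones above the limit. Of these 31 were called higher (33.7%, beside 26.4% of all clones above the limit), with a median of 0.36. Only 1, Rpl18 in column 12, was called lower (1.09%, beside 11.3%). Under median centring 2 were called higher and 27 lower, with a median of −0.33, and under quantile normalization over named clones 6 and 16 with a median of −0.09. Without serum mouse 1, the dim one, 1 clone was called higher and 5 lower (median −0.08), and without serum mouse 2, 47 and 1 (median 0.80). The direction of these genes therefore changed with the scaling and with the serum mouse. Hemoglobin and red cell genes, among the brightest of the membrane, had 16 clones above the limit. Of these 6 were called higher (37.5%) and none lower, beside 26.4% and 11.3% of all clones above the limit. Their median was 0.09, and under median centring 0 were called higher and 3 lower with a median of −0.70. Hba-a1 in P:03-L:04 was 14.4 to 14.41 in the OA mice against 14.27 and 14.17, at the top of the intensity scale, so its size was not read. Hba-a1 in D:01-L:04 and G:03-H:04 and Hbb-b1 in D:02-L:02 did not lie above all of the 6 other serum mice. In G:03-H:04 and D:02-L:02 the dim serum mouse 1 was 13.03 and 13.19. Serum mouse 2 was 14.14 and 14.34 there, and the lowest OA mouse 14.29 and 14.36.

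Mitochondrial respiratory chain subunits had 60 clones above the limit, 7 called higher and 5 lower, with a median of 0.03, and under median centring 6 higher and 15 lower with a median of −0.21. Atp5g1, a subunit of the ATP synthase rotor, was 9.9, 10.42 and 10.95 in OA against 7 and 6.75 in serum, at least 1.74-fold higher (limma adjusted p = 8.53e-10), and both clones of Uqcrb, of complex III, were higher, by 1.15 in M:04-D:02 and at least 1.18-fold in D:04-K:09. Sdha, of complex II and in column 12, was 8.86, 9.29 and 9.62 against 10.74 and 10.55, a difference of −1.34 (limma adjusted p = 8.05e-06). Proteasome subunits had 27 clones above the limit with 3 higher and 5 lower. Heat shock proteins and chaperones had 44, with 5 higher, among them the endoplasmic chaperone Hspa5 (0.91, limma adjusted p = 0.00744), and 2 lower. Under median centring the chaperones had 2 higher and 14 lower (median −0.31) and the proteasome subunits 2 and 7 (median −0.22). The share called higher was 11.1 to 11.7% in these 3 groups, beside 26.4% of all clones above the limit. The share called lower was 4.55 to 18.5%, beside 11.3%. Cell cycle genes had 12, with 3 higher (25%) and 2 lower (16.7%), beside the same 26.4% and 11.3%. Under median centring 2 of them were called higher and 3 lower. Ube2c, a ubiquitin-conjugating enzyme of mitosis, was at least 2.8-fold higher (limma adjusted p = 2.24e-07), cyclin Ccna2 rose by 0.92 and cyclin Ccnd3 fell by 1.00 and 0.76 in its clones above the limit.

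**Figure D4:**
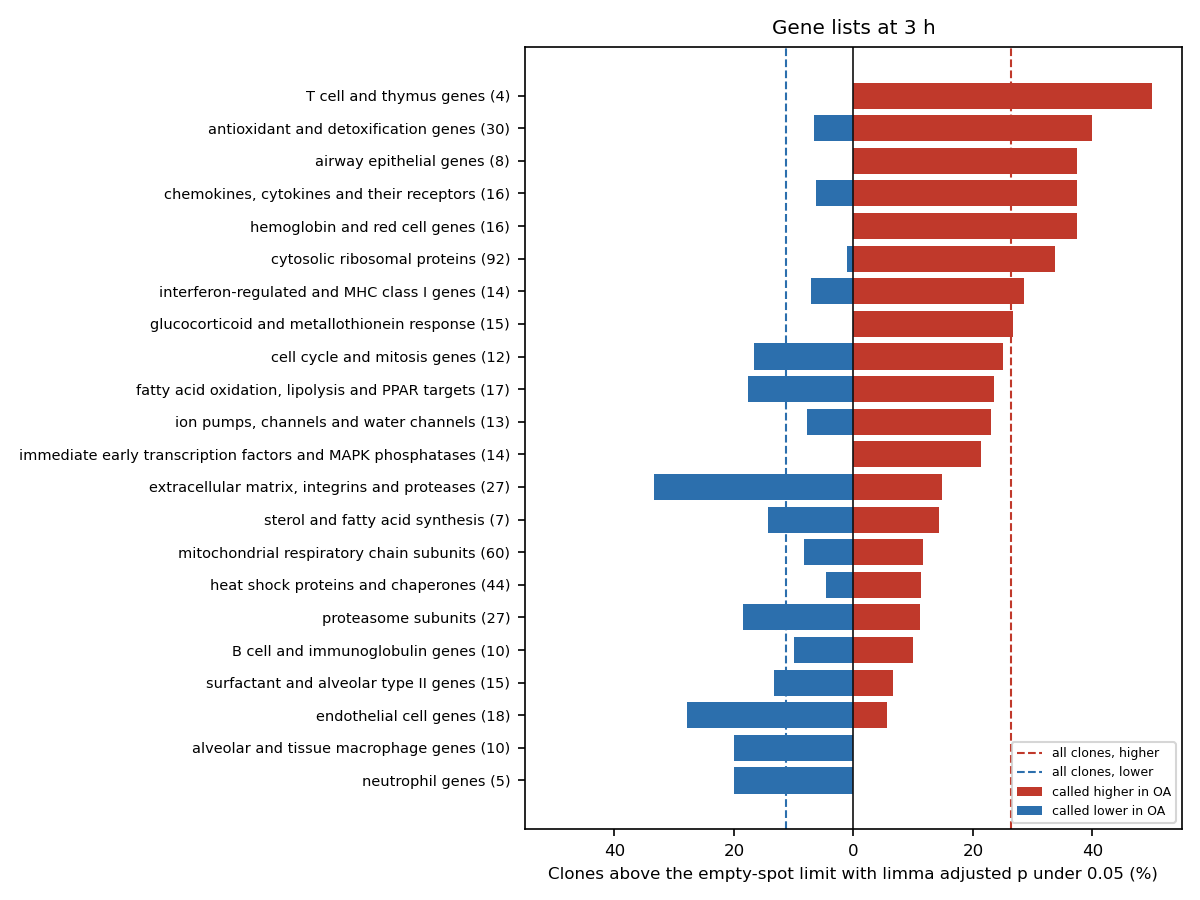
Percent of clones above the empty-spot limit that limma called higher (red, to the right) or lower (blue, to the left) in OA, for 22 gene lists with the number of clones in parentheses, and the same over all clones above the limit as dashed lines (26.4% and 11.3%). Endothelial genes (5 lower and 1 higher of 18) and matrix genes (9 lower and 4 higher of 27) extend to the left, and ribosomal proteins (31 higher and 1 lower of 92, but 2 and 27 under median centring) to the right.

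Among the lists with few clones above the limit, airway epithelial genes had 8, with 3 called higher and none lower (median 0.20), surfactant and alveolar type II genes 15, with 1 higher and 2 lower (median −0.07), and alveolar and tissue macrophage genes 10, with none higher and 2 lower, beside 26.4% higher and 11.3% lower of all clones above the limit. Under median centring airway genes had none called (median −0.19), surfactant genes none higher and 7 lower (median −0.56) and macrophage genes 3 lower. Neutrophil genes had 19 clones but only 5 above the limit, with Cyba, a subunit of the phagocyte oxidase, called lower by 0.60. B cell genes had 10 above the limit (1 higher and 1 lower, and none higher and 5 lower under median centring), T cell genes 4 (2 higher), ion pumps and channels 13 (3 higher and 1 lower, and 1 and 4 under median centring) and sterol and fatty acid synthesis 7 (1 and 1). Lef1, a transcription factor of T cells, was 9.25, 10 and 10.54 in OA against 6.81 and 6.9 in serum, at least 1.27-fold higher (limma adjusted p = 8.07e-07). Cd6, a T cell surface receptor, was 9.64, 9.9 and 10.26 against 9.15 and 9.08. In Lef1 and Cd6 serum was not above the limit, so both clones passed it through the OA mice, and their separation is a description only. Cd6 did not lie above all of the 6 other serum mice, with 9.9 in a serum mouse at 18 hours. Thymocyte markers were not above the limit. The surfactant protein Sftpd was 13.28, 13.39 and 13.67 in OA, between the serum mice at 12.24 and 14.17, and did not pass the test (0.26, limma adjusted p = 0.417). The 12.24 was of serum mouse 1, the dim one. The 6 serum mice of the other times, at 13.71 to 14.18, were all above every OA mouse at 3 hours. The aspartic protease Napsa was 9.03, 9.76 and 10.16 against 9.58 and 9.43 (0.27, limma adjusted p = 0.5). The phosphate carrier Slc34a2 passed the test (0.56, limma adjusted p = 0.0256) but was not separated, with 11.93 to 12.68 against 11.37 and 12.5. The inhibitory Smad7 was not above the limit (−0.30, limma adjusted p = 0.18).

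Several clones of a gene can be compared within the membrane. Of 237 genes with 2 or more clones above the limit, 16 had all clones separated and called higher and 6 all lower. Of all single clones above the limit 22% were separated and called higher and 9.37% lower. How many genes these shares alone would give was not tested. Among the 16 were A4galt, Rtn4, Pcmt1, Psma3, Ctsh and Rab11b and among the 6 Itga3, Ccnd3, Zyx, Ap2m1 and Spint2. A4galt, a galactosyltransferase of glycolipids, was 11.35, 12.14 and 13.02 in OA against 8.44 and 8.09 in serum in P:03-J:03, at least 6.03-fold higher, and 10.18, 11.22 and 11.92 against 7.47 and 7.37 in O:03-J:06, at least 2.81-fold higher. Neither serum mouse was above the limit in either clone of A4galt. Both clones thus passed it through the OA mice, and their separation is a description only. A further 60 genes had some but not all clones higher and 32 some but not all lower. In 5 genes the clones went in opposite directions (Dync1i2, Grb2, Wasf2, Mdh2 and Zubr1), and in the first 3 of these the lower clone is in column 12.

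The same clones were then read at the other 4 time points that have serum mice, 1 hour, 1.5 hours, 18 hours and 24 hours. The separation used no mouse of these times, but the limma calls at 3 hours and at the other times share the spread of all 35 mice and 1 normalization, so the counts below are a description. Of the 430 higher clones 424 had a difference of the same sign there (median 0.74) and limma called 385 higher (89.5%, against 31.7% of all clones above the limit). Of the 183 lower clones 181 had the same sign (median −0.61) and 173 were called lower (94.5%, against 19.7%). At 3 hours 306 of the higher and 121 of the lower clones also lay beyond the 6 serum mice of the other times. Among those that did not were Slc7a11, Timp3, Hspa5, Acaa2, Dusp1, Plvap, Ctsh in K:02-G:04 and Psma3 in O:03-D:02. A test of whether the 3 hours difference itself departed from the mean of the others called 4 of 7625 clones higher (0.0525%) and 0 lower, with 577 at an unadjusted p under 0.05. They were Frmd4a, Plcd3 and Insl5, none of them above the empty-spot limit, and a clone of the beta-actin gene Actb, and are named because they are all that were called. Higher here means above the other times: Frmd4a differed by −0.01 at 3 hours and by −0.93 at the others. The difference between OA and serum in most separated clones was thus present at the other times as well. The mean of Mt2 in the OA mice, by its clone H:03-A:07, was 9.88 after 1 hour, 9.95 after 1.5 hours and 11.53 after 4 hours, then 9.9 (18 hours) and 10.36 (24 hours), beside 11.48 after 3 hours, and its time difference did not pass the test (limma adjusted p = 0.658).

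Of the 430 higher clones 113 (26.3%) kept their limma call under each of 27 alternatives, and in 82 of these the serum mice were not above the limit on either microarray. They included Cklf, Prei3 and Cherp. Of the 183 lower clones 3 (1.64%) did so, Cebpg, Arhgdia and Msl31, the last chosen after its values were seen. Of these clones, 106 of the higher and all 3 of the lower also lay beyond the 6 other serum mice.

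**Figure D5:**
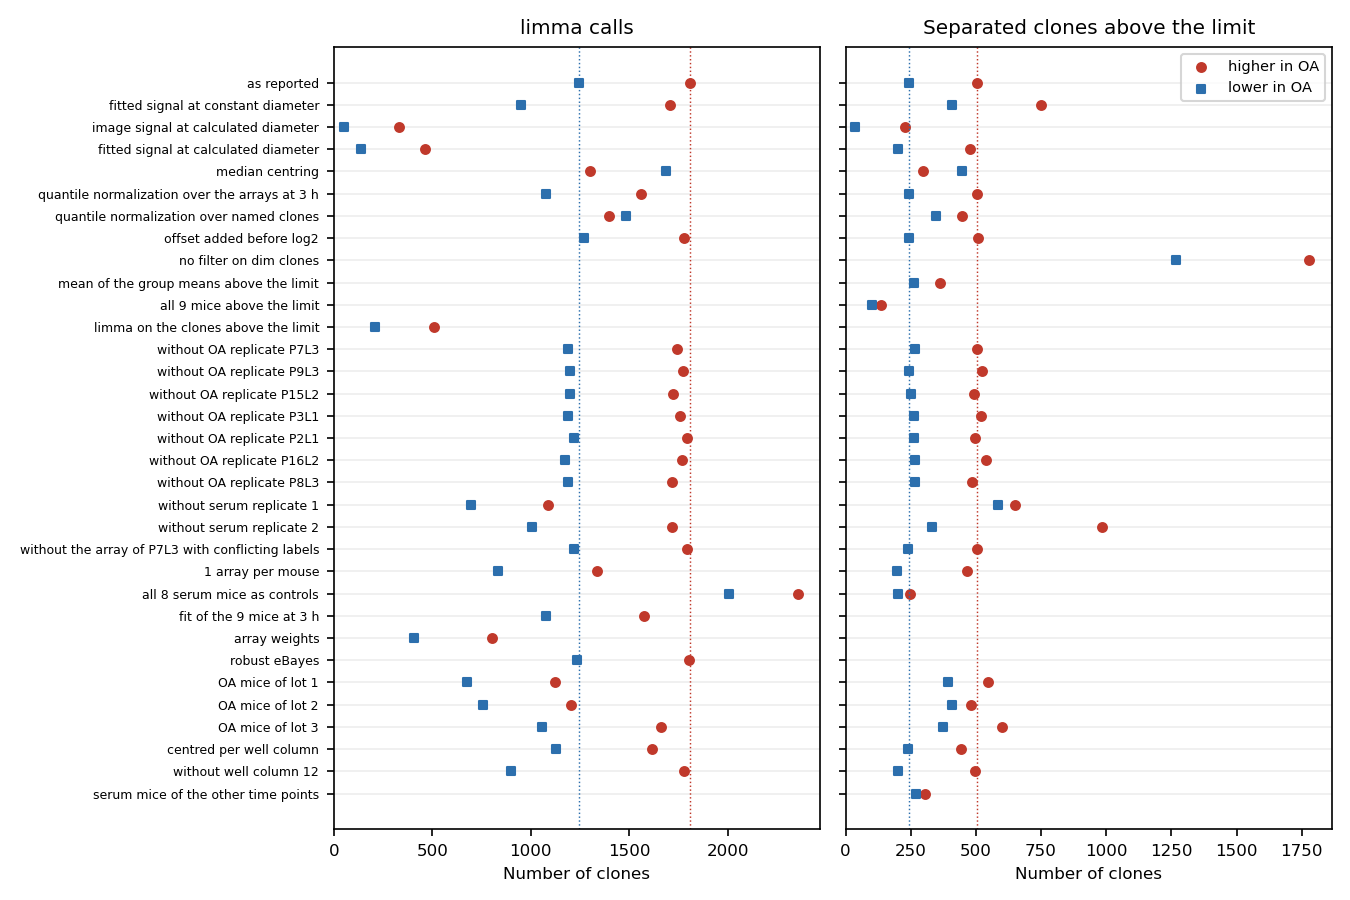
Number of clones (x axis) called by limma (left) and separated above the limit (right), higher (red circles) and lower (blue squares) in OA, as reported and under each alternative setting. Dotted lines mark the reported 1809 and 1245 limma calls and 503 and 245 separated clones, and blue exceeds red under median centring in both panels.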

How the data were processed

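For each microarray the authors deposited spot intensity on a linear scale, read from the membrane image or from a fitted spot, at a fixed or a calculated diameter. The image signal at constant diameter was used, with a floor of 1, taken to log2, and quantile-normalized over 60 microarrays and 9984 spots in R 4.3.3 with limma 3.58.1 (labels read with jsonlite 2.0.0). Microarrays of a mouse were averaged. On each microarray the 95th percentile of 512 empty spots was the limit, and a clone was above it where its distance to the limit, averaged over the 9 mice, was above 0. The brightest spot read 21815, and no depth is defined for intensities: the number of microarrays limits the precision.

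limma (lmFit, eBayes) was fitted to 35 mice in 11 groups of treatment and time, with 24 residual degrees of freedom, and adjusted over 7625 named clones. Brightness was compared by an exact permutation test over mice. The fit was tested on simulated data. Genes named in the text are the 12 clones with the widest gap in each direction, the separated and called clones of each gene list (up to 4 per direction), genes with all clones in 1 direction, and 6 genes the study singled out. The members and the 22 gene lists and 7 marker lists were chosen with earlier results of these data known. Array symbols were kept, and of 5883 symbols 4974 are current in RefSeq, 804 match 1 synonym and 105 match none. The mouse of each serum microarray comes from the labels and the study's design, and serum mice are numbered in accession order.

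The authors' deposited table of log2 values (56 columns, 14 used, 42 not used) was an alternative. Its OA columns have the ranks of the image signal at constant diameter (Spearman 1, median 8.21). Its single 3 hours serum column (median 8) correlates with the image signal at constant diameter at 0.773, and at 0.77 to 0.802 over all signal columns. How it was made is not given in the sources used here. Other alternatives were the other signal columns, normalizations, filters, controls, lots and left-out mice. Clone sequences were not used here. Some clones the rule names are not reported here.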

Additional observations from a re-analysis of the deposited data

Results flagged for a closer look

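Among 130 groups of values examined, the 7 OA mice of the named clones included 8 with 1 mouse far from the rest, where chance gives about 1 in 20. Mouse P8L3 was the highest in Il16 (10.97, next 10.1), in Uqcrb (10.87, next 10.22) and in Pcmt1 (10.71, next 10.42). Mouse P16L2 was the highest in Peo1 (10.25, next 9.87) and the lowest in Slc34a2 (11.93, next 12.46). Mouse P9L3 was the lowest in Napsa (9.03, next 9.71) and in Psmd8 (8.64, next 9.31). Mouse P2L1 was the lowest in Aldh1a1 (11.66, next 11.9).

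In 4 clones, the last of them bright, the 3 hours difference departed from the mean of the other times by limma's test of that difference. The departure was 0.92 in Frmd4a (adjusted p = 0.0307), 0.86 in Plcd3 (0.0336) and 0.93 in Insl5 (0.0292), which are not above the empty-spot limit. OA minus serum in Frmd4a was −0.01 at 3 hours and −0.93 at the other times. It was 0.86 and 0 in Plcd3 and 2.06 and 1.12 in Insl5. In the Actb clone O:02-J:06 the departure was 0.74 (adjusted p = 0.0307), with a difference of 0.90 at 3 hours and 0.16 at the other times. Its mean at 3 hours was 14.11 in OA and 13.21 in serum. At the other 4 times it was 14.18 to 14.25 in OA and 13.94 to 14.09 in serum.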

How the results depend on the processing

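The reported counts are 1809 limma calls higher and 1245 lower, and 503 separated clones higher and 245 lower. Leaving out 1 mouse at a time gave 1088 to 1793 and 695 to 1220 limma calls, and 484 to 985 and 244 to 584 separated clones, the fewest calls and the most separated lower without serum mouse 1, and the most separated higher without serum mouse 2. At calculated diameter the image signal gave 333 and 54 limma calls and 230 and 36 separated clones, and the fitted signal 465 and 138 limma calls. The fitted signal at constant diameter gave 410 separated lower. Median centring gave 298 and 448 separated. Array weights gave 805 and 409 limma calls, and testing only clones above the limit 508 and 210, over fewer clones. All 8 serum mice as 1 control group gave 2004 limma calls lower and 246 separated higher. Lot 1 alone gave 1124 and 677 limma calls and 395 separated lower, lot 2 756 limma calls lower and 409 separated lower, and lot 3 373 separated lower. Fewer mice in a group make separation easier to meet and more mice make it harder, so these separated counts also follow group size. Without the filter 1779 and 1268 were separated, and with all 9 mice above the limit 138 and 101. Some alternatives were added after seeing the data. Serum mice of the other times gave 305 separated higher, and centring each well column or leaving out column 12 kept each count within 1.5 times. The median of all clones ran from −0.06 to 0.14 over settings on all clones. The causes were not tested. No paired analysis was possible because the OA and serum mice share no replicate numbers.

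Of 127 named clones, 28 of the 122 called kept their call in all 27 alternatives with a test. Some changed sign. With the fitted signal at constant diameter Hba-a1 P:03-L:04 was −0.13. With the image signal at calculated diameter Prdx4 was −0.10, Hba-a1 D:01-L:04 −0.73, Psmb10 0.14 and Ap2m1 I:01-J:06 0.27. With the fitted signal at calculated diameter Prdx4 was −0.02, Rab11b −0.43, Hba-a1 −0.52 and −0.08, Plvap 0.15, Psmb10 and Psmb5 0.01, Psmd4 0.14, Ap2m1 0.87 and Spint2 0.18. Under median centring B2m B:02-H:05 was −0.06, Rpl24 −0.04, Hba-a1 −0.68, −0.35 and −0.74, Hbb-b1 −0.35 and Sftpd −0.81. Sftpd was −0.56 with quantile normalization over named clones and −0.70 without serum mouse 1, where Slc34a2 was 0, while without serum mouse 2 they were 1.22 and 1.12. With well columns centred Pdia6 was 0.03 and Ndufb10 0.19. In the authors' table Txn1 was −0.06, Fasn G:04-E:12 1.34, Csnk1a1 0.37, Plvap 0.59, Fkbp4 0.43, Bgn 0.06, Ap2m1 0.35 and 1.18, Psmb10 0.26, Zyx 0.24 and Psmd4 0.47, where the difference of a further 74 named clones moved by more than the spread between replicates and that of 42 did not. Of all separated and called clones, 426 of 430 higher and 146 of 183 lower kept their sign in that table.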
